A study of Mus musculus with 4 samples.

Results

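The proteins that neutrophils pack into their granules were described here through 10 genes taken by name from the 21883 protein-coding genes of the RefSeq table (GRCm38.p6, the assembly behind mm10). They were the late granule genes Ltf, Camp, Ngp, Lcn2, Mmp8 and Mmp9 and the early granule genes Mpo, Elane, Prtn3 and Ctsg. Open chromatin had been mapped by ATAC-seq, which relies on the Tn5 transposase to place adapters in accessible DNA, in Gr1+CD11b+ myeloid-derived suppressor cells sorted from ascitic fluid. The mice were Sphk2 KO (n = 2 libraries), lacking the gene for sphingosine kinase 2, or WT (n = 2 libraries), and all had been injected 14 days earlier with EL4, a lymphoma line of mouse T cells. Each library was made from 20000 cells with 40% of the recommended Tn5. How the Sphk2 allele was made and the age, sex and strain of the mice are not given in the sources used here, nor is it stated whether a library came from 1 animal or a pool. The p-values therefore measure the spread between libraries. For each gene, every peak that overlapped the gene body extended by 10 kb on each side was taken, and peaks sharing at least 1 bp were merged across libraries, which gave 33 regions of 45299 in the whole series.

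Neutrophils fill their granules in a fixed order while they mature in the bone marrow. The azurophil granules come first, at the promyelocyte stage, and hold myeloperoxidase (Mpo) and the serine proteases neutrophil elastase (Elane), proteinase 3 (Prtn3) and cathepsin G (Ctsg). Specific and gelatinase granules follow and hold iron-binding lactoferrin (Ltf), the cathelicidin antimicrobial peptide precursor (Camp), neutrophilic granule protein (Ngp), the siderophore-binding lipocalin 2 (Lcn2), the collagenase Mmp8 and the gelatinase Mmp9. Transcription of the early genes stops as cells mature, while C/EBP family factors, C/EBP epsilon above all, drive the late ones.

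Marker genes were counted to check the sorted population. Of 10 neutrophil markers, 9 and 9 in Sphk2 KO and 9 and 10 in WT (replicates 1 and 2 in this order throughout) had a peak within 10 kb of the gene body, against 56.6% and 62.4% of all protein-coding genes in Sphk2 KO and 64.5% and 65.2% in WT. The counts were 6 and 8 in Sphk2 KO against 9 and 10 in WT for 10 monocyte and macrophage markers, and 4 and 6 against 8 and 9 for 13 T cell markers, shared by host T cells and the EL4 line. Myeloid progenitor markers had 3 and 6 of 8 in Sphk2 KO and 6 and 7 in WT, B cell markers 1 and 1 of 7 against 2 and 1, and eosinophil, basophil and mast cell markers 2 of 8 in every library. The eosinophil peroxidase gene Epx, a relative of Mpo, had none. Retained fragments numbered 25877428 and 27686223 in Sphk2 KO and 33859480 and 34443062 in WT, and the lists held 20759 and 27446 peaks in Sphk2 KO and 31507 and 31843 in WT. Monocyte and T cell counts had the same order of libraries as depth and list length, and progenitor counts did apart from a tie. The part of depth in these counts and the part of cell makeup in the results below were not tested. A peak borne by fewer cells and a weaker peak in every cell cannot be told apart in such libraries.

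The promoters on which the results turn are shown first, as the 250 bases before the annotated transcription start (RefSeq, GRCm38.p6), 5′ to 3′ on the strand of the gene. Capitals mark matches to TTGCNNAA, a C/EBP-type sequence, and to GGAAGT, a core that ETS factors such as PU.1 can bind, on either strand. Ltf, Mmp8, Lcn2 and Camp are shown because a peak was called over their promoters in at least 1 library, and Ngp and Elane as a late and an early promoter without one.
Ltf promoter, plus strand, chr9:111019042-111019291, peak called in both Sphk2 KO libraries: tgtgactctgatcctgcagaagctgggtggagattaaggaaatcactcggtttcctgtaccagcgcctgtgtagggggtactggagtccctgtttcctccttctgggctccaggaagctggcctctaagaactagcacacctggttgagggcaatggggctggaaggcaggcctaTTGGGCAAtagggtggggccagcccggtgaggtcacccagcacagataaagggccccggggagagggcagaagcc
Mmp8 promoter, plus strand, chr9:7558179-7558428, peak called in all 4 libraries: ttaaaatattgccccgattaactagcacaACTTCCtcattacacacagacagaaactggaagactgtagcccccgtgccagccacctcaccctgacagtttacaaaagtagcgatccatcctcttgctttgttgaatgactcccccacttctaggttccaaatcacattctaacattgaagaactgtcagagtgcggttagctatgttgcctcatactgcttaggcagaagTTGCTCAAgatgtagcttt
Lcn2 promoter, minus strand, chr2:32387740-32387989, peak called in replicate 2 of each genotype: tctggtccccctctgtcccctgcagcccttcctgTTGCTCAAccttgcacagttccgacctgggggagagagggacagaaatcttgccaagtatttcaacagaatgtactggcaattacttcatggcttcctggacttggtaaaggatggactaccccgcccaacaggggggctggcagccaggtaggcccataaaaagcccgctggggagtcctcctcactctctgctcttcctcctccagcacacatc
Camp promoter, minus strand, chr9:109849457-109849706, peak called in WT replicate 1: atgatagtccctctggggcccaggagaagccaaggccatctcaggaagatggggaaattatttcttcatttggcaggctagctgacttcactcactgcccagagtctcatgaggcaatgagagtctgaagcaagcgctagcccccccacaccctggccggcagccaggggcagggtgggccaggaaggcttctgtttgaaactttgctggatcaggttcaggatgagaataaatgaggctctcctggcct
Ngp promoter, plus strand, chr9:110419558-110419807, no peak called: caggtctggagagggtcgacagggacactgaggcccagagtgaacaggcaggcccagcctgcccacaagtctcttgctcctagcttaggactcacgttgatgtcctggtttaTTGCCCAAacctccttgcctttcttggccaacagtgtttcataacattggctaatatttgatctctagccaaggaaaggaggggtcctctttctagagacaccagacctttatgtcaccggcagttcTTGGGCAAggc
Elane promoter, plus strand, chr10:79886062-79886311, no peak called: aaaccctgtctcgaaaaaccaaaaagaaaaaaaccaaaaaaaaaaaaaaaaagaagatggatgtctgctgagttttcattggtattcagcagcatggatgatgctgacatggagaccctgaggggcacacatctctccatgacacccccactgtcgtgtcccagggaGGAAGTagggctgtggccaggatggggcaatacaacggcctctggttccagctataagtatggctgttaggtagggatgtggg

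Late and early promoters differed in these letters. TTGCNNAA was found in 4 of 5 late promoters (Ltf, Ngp, Lcn2 and Mmp8) and in 0 of 4 early ones, and 9.11% of all 17491 promoters of the table held it in the same 250 bases. GGAAGT was found in 1 of 5 late promoters (Mmp8) and in all 4 early ones, against 20.5% of all promoters. TGTGGT, a Runx-type sequence, was present in the Ctsg promoter and in no other member, against 12.5% of all promoters. No match of one motif overlapped a match of another in these promoters, and Mmp9 was not among the promoters matched. The TTGCNNAA match of Ltf lay 75 to 68 bases before the start, inside the peaks of both Sphk2 KO libraries. That of Mmp8, 19 to 12 bases before the start, lay inside the peaks of all 4 libraries. The Lcn2 match, 216 to 209 bases before the start, lay inside the peaks of Sphk2 KO replicate 2 and WT replicate 2. Neither of the 2 Ngp matches and none of the early GGAAGT matches lay in a peak. These are matches of letters and not measured binding.

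Called peaks lay near most granule genes and over fewer of their promoters, and the same order held over all protein-coding genes. At least 1 peak lay in the gene window of 7 and 8 of the 10 genes in Sphk2 KO replicates 1 and 2 and of 8 and 8 in WT replicates 1 and 2, and 7 genes had one in all 4 libraries. The shares over all protein-coding genes were the 56.6% and 62.4% in Sphk2 KO and 64.5% and 65.2% in WT given above. Ngp and Ctsg had none in any library, and Camp had one in every library but Sphk2 KO replicate 1. Over the promoter itself, taken from 250 bases before to 50 after the start, peaks were called at 2 and 3 of 9 genes in Sphk2 KO and at 2 and 2 in WT. All 4 early promoters lacked a peak in all 4 libraries, as did 49.6% of all promoters. Among the late genes with a promoter in the table, 2 and 3 of 5 had a promoter peak in Sphk2 KO and 2 and 2 in WT, against 43.7% and 47.5% of all promoters in Sphk2 KO and 48.3% and 49.0% in WT.

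**Figure D1:**
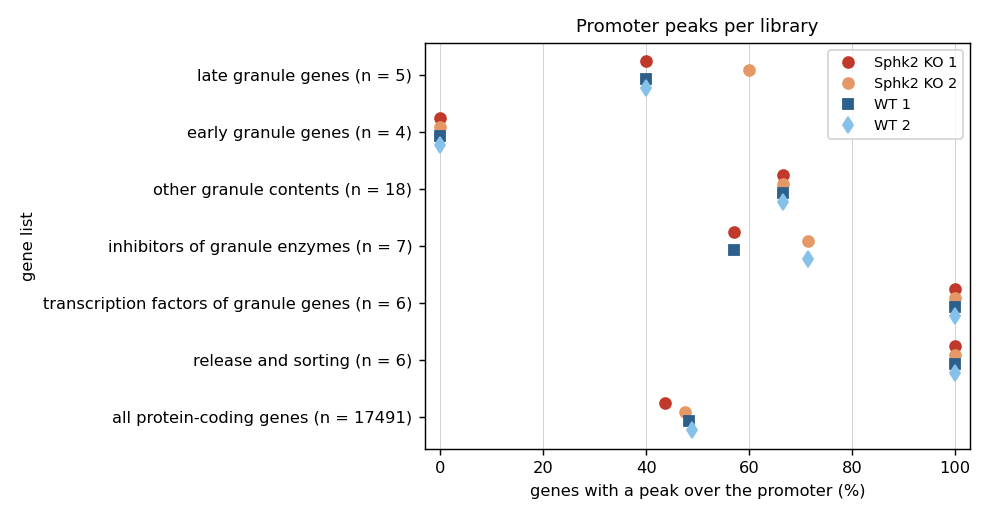
Share of genes with a called peak over the promoter (x axis, percent) for each gene list (y axis, with the number of genes in the promoter table), 1 symbol per library. Late granule genes have 2 or 3 of 5 in each library, early granule genes 0 of 4, and all protein-coding genes between 43.7% and 49.0%.

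**Figure D2:**
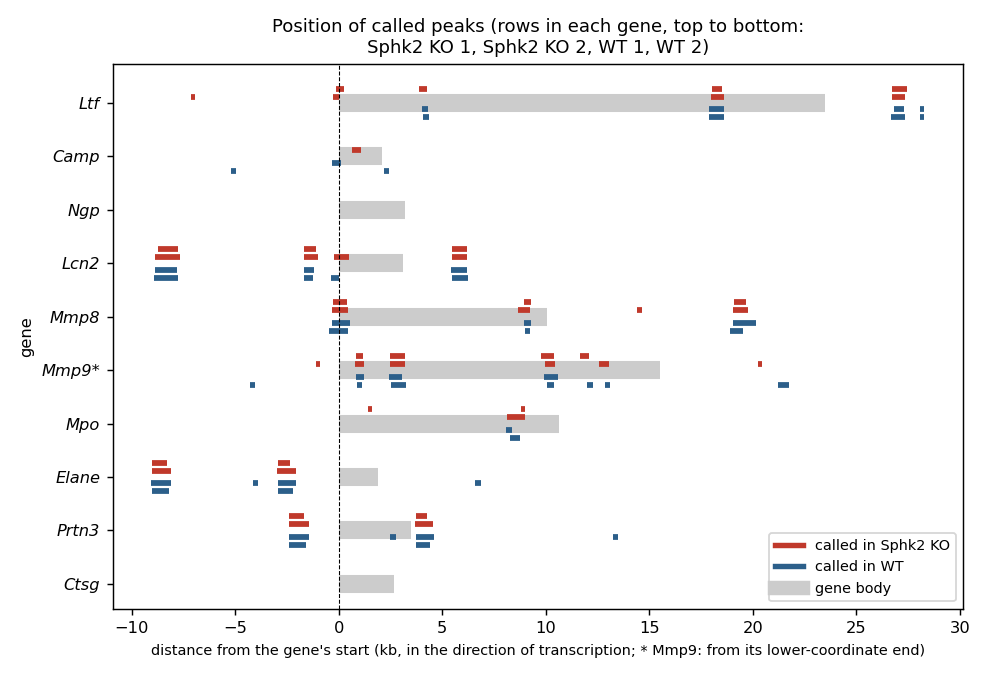
Called peaks (bars) around each gene by distance from its start in kb, with Sphk2 KO peaks above and WT peaks below the middle of each row and the gene body in grey. Ngp and Ctsg have no bar, and the bars at the start of Ltf are from Sphk2 KO alone. At Mpo the replicate 1 peak of Sphk2 KO from 8.79 kb lies beyond both WT peaks, and its other peak, from 1.41 kb, lies before them.

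Ltf (gene ID 17002, plus strand, chr9:111019292-111042766), lactoferrin, had 6 regions, and its promoter peak was called in Sphk2 KO alone. The promoter region (chr9:111019031-111019555) reached from 261 bp before to 263 bp after the start. It had a −log10 q of 2.43 and 7.80, a fold enrichment of 3.07 and 4.36 and 14 and 24 fragments at the summit in Sphk2 KO replicates 1 and 2, and no peak in either WT library. Its ranks in the whole lists were 19592 of 20759 and 19271 of 27446, so both calls were weak. A second region, 28.1 kb after the start and 4597 bp past the gene (chr9:111047363-111047582), was called in WT alone, with a −log10 q of 2.85 and 6.86 in WT replicates 1 and 2. The strong regions of the locus were common to the genotypes. One in the gene body, 18.2 kb after the start, had a −log10 q of 20.1 and 31.3 in Sphk2 KO and 33.2 and 33.1 in WT. Another, 3211 bp past the gene, had 38.2 and 50.3 in Sphk2 KO and 46.5 and 50.1 in WT. A weaker region in the gene, 4.15 kb after the start, was called in Sphk2 KO replicate 1 and both WT libraries.

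Mmp8 (gene ID 17394, plus strand, chr9:7558429-7568486), a collagenase of specific granules, was the only one of the 9 members in the promoter table whose promoter was called in all 4 libraries, against 43.2% of all promoters. The promoter region spanned 475 bp before to 557 bp after the start (chr9:7557954-7558986). Its −log10 q was 10.0 and 21.4 in Sphk2 KO and 12.3 and 16.4 in WT, and its fold enrichment 5.63 and 6.75 in Sphk2 KO and 5.28 and 6.39 in WT. Strength was also compared as a rank percentile by −log10 q among the 16973 regions called in all 4 libraries, where 100 is the strongest. This gives every library the same number of ranked regions, but list length still limits which regions enter. The Mmp8 promoter stood at 25.2 and 25.2 in Sphk2 KO, above the 16.5 and 19.4 in WT. A region at the 3′ end of the gene body, 9.15 kb after the start, stood at 65.3 and 46.3 in Sphk2 KO and 47.4 and 35.3 in WT, so the genotypes overlapped. A region 8827 bp past the gene, inside the body of the neighbouring metalloproteinase gene Mmp27, stood at 9.98 and 6.82 in Sphk2 KO, below the 13.05 and 19.6 in WT.

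Lcn2 (gene ID 16819, minus strand, chr2:32384637-32387739), lipocalin 2, had the member region of highest −log10 q in every library, but this lay over the start of another gene. That region, 8.31 kb upstream (chr2:32395423-32396667), covered the start of Ptges2, a prostaglandin E synthase gene, and had a −log10 q of 45.2 and 95.6 in Sphk2 KO and 60.3 and 84.96 in WT. The region 2319 bp past the 3′ end of Lcn2 covered the start of 1110008P14Rik and had 36.1 and 83.3 in Sphk2 KO and 60.2 and 57.7 in WT. Nearer to Lcn2, a region 1.56 kb before its start was called in all 4 libraries at low strength, 4.36 and 5.61 in Sphk2 KO and 6.31 and 5.04 in WT. The promoter was called in Sphk2 KO replicate 2 (4.27) and WT replicate 2 (3.08), the deeper library of each genotype.

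Mmp9 (gene ID 17395, chr2:164940326-164955850), the gelatinase, had 9 regions, the most of any member, of which 3 were called in all 4 libraries. Positions are given from the lower-coordinate end of the gene, since the gene table has no strand. The strongest (chr2:164942752-164943580) lay in the gene body at 2.77 kb and had a −log10 q of 40.3 and 62.0 in Sphk2 KO and 52.5 and 57.4 in WT. A second at 10.2 kb had 10.5 and 14.0 in Sphk2 KO and 12.5 and 15.2 in WT, and another at 0.924 kb had 4.29 and 10.1 in Sphk2 KO and 7.38 and 4.50 in WT. Ranks of the genotypes overlapped at all 3. The other 6 regions were called in 1 or 2 libraries each, with a −log10 q from 1.96 to 7.48. They included a region 52 bp from the start of the neighbouring gene Slc12a5, called in Sphk2 KO replicate 2 (4.94). Another, called in WT replicate 2 (4.50), lay inside the body of Slc12a5, 692 bp from its start.

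Camp and Ngp, both on chromosome 9, whose proteins are made at the same stage as lactoferrin, had little. Camp (gene ID 12796, minus strand, chr9:109847377-109849456) had 4 regions, each called in a single library, 1 in Sphk2 KO replicate 2 (−log10 q 2.78), 1 over the promoter in WT replicate 1 (2.98) and the others in WT replicate 2 (1.81 and 5.42). No region of Camp was common to any pair of libraries. Ngp (gene ID 18054, plus strand, chr9:110419808-110423012) had no peak, and the nearest region lay 11119 bp from its gene body, just outside the window. That region was strong in every library, with 37.7 and 83.6 in Sphk2 KO and 60.5 and 67.7 in WT.

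**Figure D3:**
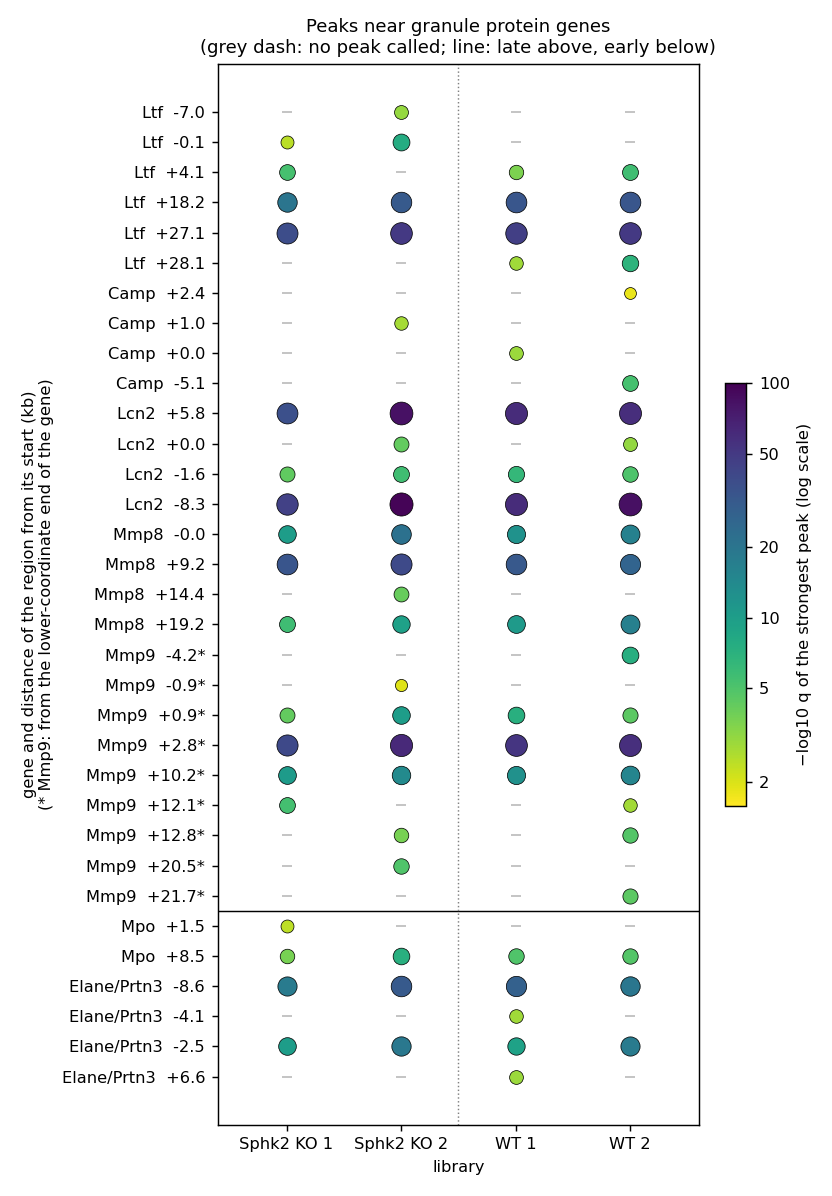
Strength of the strongest peak (colour and size, −log10 q on a log scale) of each of the 33 regions (rows, by gene and distance from the start in kb) in each library (columns). All 4 columns are filled in 14 rows, which belong to Ltf, Lcn2, Mmp8, Mmp9, Elane with Prtn3, and Mpo. Camp has single dots only, and no Mpo region has a −log10 q above 7.28.

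Fewer regions lay near the 4 early genes (6) than near the 6 late genes (27), and their strengths are compared further below. Elane (gene ID 50701, plus strand, chr10:79886312-79888216) and Prtn3 (gene ID 19152, plus strand, chr10:79879667-79883174), neighbours that encode elastase and proteinase 3, share all 4 of their regions. The region 1.92 kb before the Prtn3 start (chr10:79877264-79878224) was called in all 4 libraries, with a −log10 q of 18.2 and 31.4 in Sphk2 KO and 28.1 and 19.8 in WT. The region between the genes, 2.45 kb before the Elane start (chr10:79883327-79884262), had 10.2 and 19.0 in Sphk2 KO and 9.23 and 18.1 in WT. The ranks of the genotypes overlapped at both regions, and the other 2 regions were called in WT replicate 1 alone, at 2.87 and 2.98.

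Mpo (gene ID 17523, plus strand, chr11:87793784-87804412), myeloperoxidase, had 1 region in all 4 libraries, in the gene body 8.54 kb after the start (chr11:87801886-87802797). Its −log10 q was 3.70 and 7.28 in Sphk2 KO and 4.94 and 4.81 in WT. Its rank percentile was 3.76 and 3.89 in Sphk2 KO, above the 2.77 and 1.66 in WT, low among the regions called in all 4 libraries. In the whole lists it ranked 17748 of 20759 and 19506 of 27446 in Sphk2 KO and 21758 of 31507 and 23469 of 31843 in WT. The summits lay at 87802624 and 87802579 in Sphk2 KO and at 87802043 and 87802063 in WT, at least 516 bp apart. Sphk2 KO replicate 1 and the WT libraries had no base of this region in common, and the broader peak of Sphk2 KO replicate 2 joined them. A gap of 500 bp or more between the summits of the genotypes occurred in 1 of 14 such member regions and in 0.324% of all regions called in all 4 libraries, and this feature was picked after its values were seen. Another Mpo region, 1.45 kb after the start, was called in Sphk2 KO replicate 1 alone (2.39). Ctsg (gene ID 13035, minus strand, chr14:56099885-56102574), cathepsin G, had no peak, and the nearest region on either side lay 180940 bp away.

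Between the genotypes, 1 of the 33 regions was called in both Sphk2 KO libraries and neither WT library, against 0.605% of all regions. Another 1 of the 33 was called in both WT libraries and neither Sphk2 KO library, against 5.43% of all regions. Both belonged to Ltf. At the promoter level Ltf was the 1 of 9 members called in both Sphk2 KO libraries and neither WT library, a pattern found in 0.08% of all 17491 promoters (14 genes). No member promoter showed the reverse, against 1.1%. No member gained or lost all of its peaks with genotype, against 0.11% of genes with window peaks in Sphk2 KO alone and 2.13% in WT alone. With peaks of −log10 q of at least 5 no member region was private to a genotype, since each of the Ltf regions had 1 weaker call. Leaving out a library moved these counts: regions private to Sphk2 KO were 6 without Sphk2 KO replicate 1, all but the Ltf promoter being calls of replicate 2 alone, and 3 without Sphk2 KO replicate 2. The shares over all regions were 9.79% and 4.93% under these settings.

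Among the 14 member regions called in all 4 libraries, ranks separated the genotypes in 3. Both Sphk2 KO ranks were above both WT ranks at 2 regions, the Mmp8 promoter and the Mpo gene body, against 22.1% of all regions called in all 4 libraries. At Mpo the peak of Sphk2 KO replicate 1 shared no base with the WT peaks, so separate peaks were ranked there. With windows around summits the count was 1 of 13, against 22.0% of all regions. Both WT ranks were above both Sphk2 KO ranks at 1 region, past the end of Mmp8, against 21.3%. Genotype ranks overlapped at the other 11 regions. The 3 regions had a two-sided exact permutation p of 0.333, the smallest that 2 libraries against 2 can give, and a Benjamini-Hochberg adjusted exact p of 0.768 over the 16973 regions. No region of the series could pass in this design. The mean percentile was higher in Sphk2 KO at 12 of the 14 regions, against 50.6% of all regions, by a median of 1.87 points (range -7.93 to 14.4). This count was chosen after the data were seen. It was 8 of 14 without Sphk2 KO replicate 1 and 8 of 14 without WT replicate 2, where the shares over all regions were 51.2% and 50.6%. Marker genes also moved on this measure. At neutrophil markers Sphk2 KO ranked above WT without overlap at 11 and WT above Sphk2 KO at 3 of 29 common regions, with a median difference of 3.41 points. The counts were 2 and 7 of 14 at monocyte and macrophage markers (-6.37 points), 2 and 0 of 7 at T cell markers (2.69), 2 and 0 of 5 at progenitor markers (7.52) and 3 and 0 of 4 at eosinophil, basophil and mast cell markers (14.7). B cell markers had 2 common regions and no separation (3.73). Their part in the values of the granule genes was not tested.

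**Figure D4:**
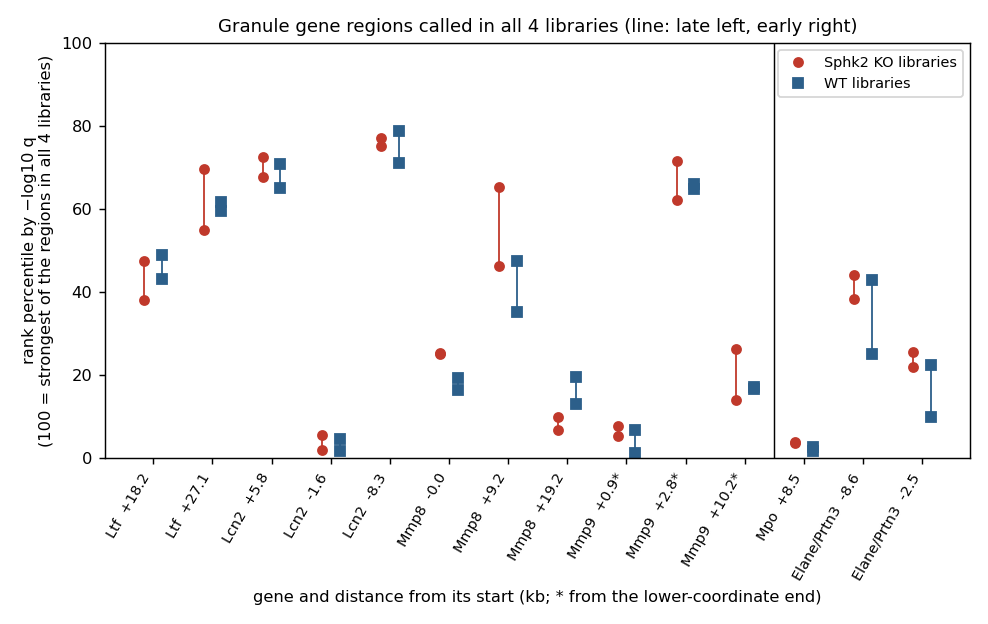
Rank percentile (y axis, 100 the strongest of the 16973 regions called in all 4 libraries) of the 14 member regions (x axis), with Sphk2 KO libraries as red circles left of WT libraries as blue squares and a line joining the 2 libraries of a genotype. The genotypes do not overlap at the Mmp8 promoter (-0.0), past the end of Mmp8 (+19.2) and in Mpo (+8.5). In Mpo the peak of Sphk2 KO replicate 1 shares no base with the WT peaks. The highest point of each library belongs to the Lcn2 region that covers the start of Ptges2.

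Late and early genes were set side by side by the same measures. The 6 late genes had 27 regions, 11 of them in all 4 libraries, and the 4 early genes had 6 regions, 3 of them in all 4. The median percentile of the common regions was 47.5 and 38.0 in Sphk2 KO and 47.4 and 35.3 in WT for late genes, and 25.6 and 22.0 in Sphk2 KO and 10.0 and 22.4 in WT for early genes. Late regions had the higher median in every library, but they included 2 Lcn2 regions that covered the starts of other genes. The region over the start of Ptges2 stood at 75.2 and 77.2 in Sphk2 KO and 71.0 and 78.8 in WT. That over the start of 1110008P14Rik stood at 67.7 and 72.5 in Sphk2 KO and 70.9 and 65.1 in WT. The late medians thus do not describe regions of the late genes alone. Without these 2 Lcn2 regions the late medians were 26.2 and 25.2 in Sphk2 KO and 16.7 and 19.6 in WT. In WT replicate 2 this was below the early 22.4, so the order of the stages there rested on them. The difference of Sphk2 KO minus WT had a median of 1.66 points at late regions, with 9 of 11 above 0, and of 7.17 points at early regions, with 3 of 3 above 0. Late minus early was thus -5.51 points, but 0.359 without WT replicate 1 and -0.381 without WT replicate 2. With gene bodies alone it was 1.24. The order of the 2 stages in this difference therefore turned with 1 library, and the early value rested on 3 regions, 2 of which Elane and Prtn3 share. The remaining region, at Mpo, joined a peak of Sphk2 KO replicate 1 with WT peaks that share no base with it.

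Other genes of the granule pathway were read from lists chosen with earlier results of these data known. Promoter peaks were called in every library at 12 of 18 other granule content genes in the promoter table, against 43.2% of all promoters. They included Lyz2 (lysozyme), Ctsc, which activates the azurophil serine proteases, Itgam, the CD11b chain, and Cyba. The gene windows of these 24 genes held 94 regions, of which 0 were private to Sphk2 KO and 7 (7.45%) to WT, near the 0.605% and 5.43% over all regions. The WT-only regions of highest rank lay at Ctsd (−log10 q 6.58 and 7.70), Srgn, the granule proteoglycan serglycin (7.90 and 7.55), Cybb, the NADPH oxidase chain (7.13 and 7.55), and Wfdc21 (5.71 and 9.28). Inhibitors of granule enzymes, such as Slpi and Serpinb1a, held 14 regions over 9 genes with none private to a genotype. All 10 transcription factor genes, Cebpe, Spi1 and Gfi1 included, had a window peak in all 4 libraries, against 55.3% of all genes. They held 47 regions, with 1 private to Sphk2 KO and 2 to WT, all 3 in Runx1 and all weak (−log10 q at most 4.11). Genes of granule sorting and release held 35 regions, with 2 private to WT, at Ncf4 (5.56 and 8.54) and Rab27a (2.38 and 3.15), and genes of extracellular trap formation (Padi4, Hmgb1 and Gsdmd) held 7 with none. By rank, among regions called in all 4 libraries, Sphk2 KO stood above WT without overlap at 11 and WT above Sphk2 KO at 9 of 48 regions of the other granule contents. The counts were 0 and 4 of 10 for the inhibitors, 9 and 3 of 26 for the transcription factors, 4 and 6 of 25 for sorting and release and 2 and 0 of 5 for extracellular traps, against 22.1% and 21.3% of all regions.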

How the data were processed

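The 4 peak lists analysed came from 2 Sphk2 KO and 2 WT libraries. The submitters' processing notes name cutadapt, BWA, MACS2 and mm10. Per the file headers, the authors called peaks with MACS 2.1.1.20160309 per library on paired-end fragments, without a control, at a q-value of 0.05, keeping 1 fragment per position and using a local background of 10000 bp. Any shift for the Tn5 offset was not stated in those notes or headers. Each deposited list gives a pileup signal in fragments, not scaled to depth, a −log10 p and −log10 q per peak, and a fold enrichment, the authors' ratio of pileup to local background. These are each peak's own scores and depend on depth. No reads per region were used, so a region without a call may be accessible below the threshold.

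Regions, windows and ranks were computed in Python 3.11.15 with pandas 2.3.3 and numpy 2.4.6, and the steps were tested on simulated peak lists. Where a library had several peaks in a region, the strongest by −log10 q was used. Genes, promoters and strands came from RefSeq (GRCm38.p6), and 9 of 10 members matched a promoter. Single regions were compared by exact permutation over libraries. All 10 members were named, and of the other lists the genes with private regions, at most 4 per list and direction. The members, lists, motifs and tests were chosen with earlier results of these data known. Alternatives were a −log10 q of at least 5, equal numbers of top peaks, other windows, summit windows, ranking by fold enrichment, presence within 500 bp, pairing by replicate number and leaving out each library.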

Additional observations from a re-analysis of the deposited data

How the results depend on the processing

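Regions private to Sphk2 KO, 1 in the main count, numbered 0 when peaks needed a −log10 q of 5 or more, 2 when every library kept its 20759 top peaks, 2 with windows of 250 bp on each side of summits, and 1 to 6 with a library left out. Over all regions the share was 0.605% in the main count, 0.655%, 1.95% and 0.734% in the order of these 3 settings and 1.28% to 9.79% with a library left out. Those private to WT, also 1, numbered 0, 0 and 2 in the same order, 0 with gene bodies alone and 2 to 5 with a library left out. Their share over all regions was 5.43% in the main count and 5.30%, 3.54% and 5.75% in the order of the 3 settings. With a library left out it was 6.22% to 23.8%. The summit windows added Mpo to both directions. Regions with Sphk2 KO ranks above WT, 2 in the main count, were 1 of 11, 1 of 11 and 1 of 13 under the first 3 settings. They were 3 of 14 when ranked by fold enrichment, 5 of 26 with 25 kb windows and 4 to 9 of 14 with a library left out. Those with WT above, 1 in the main count, were 1 of 14 when ranked by fold enrichment, 0 with gene bodies, 4 of 26 with 25 kb and 1 to 5 of 14 with a library left out. Over all regions called in all libraries these shares were 22.1% and 21.3% in the main count, but 35.8% to 37.3% and 34.4% to 36.8% with a library left out. The share with Sphk2 KO above was 22.0%, 21.9% and 22.0% under the first 3 settings. Ranked by fold enrichment, the shares were 18.6% and 18.1%. The late minus early difference, -5.51 points, was -6.84 when ranked by fold enrichment, 1.24 with gene bodies, -0.173 with 25 kb and between -5.63 and 0.359 with a library left out. A higher mean rank in Sphk2 KO held at 6 of 7 regions in gene bodies and at 8 to 12 of 14 with a library left out. With gene bodies alone, 4 and 6 of the 10 members had a peak in Sphk2 KO and 6 and 5 in WT. The share of all protein-coding genes is not given for this setting, so these counts cannot be called low or high. The causes were not tested. Genotypes share replicate numbers, but deviations of same-numbered libraries correlated at only 0.0117 over 16973 regions, so the numbers are not taken as a pairing. With the replicate block, 5 regions ranked higher in Sphk2 KO and 2 in WT in both pairs, of 14, against 29.9% and 28.8% of all regions, and the late minus early difference was -0.440. At these depths a region without a call may be open below the threshold. The Ltf promoter was called in both libraries with fewer fragments (Sphk2 KO) and in neither with more (WT). The median fold enrichment of all peaks was 6.03 and 6.01 in Sphk2 KO and 5.19 and 5.11 in WT. The part of depth and enrichment in the Ltf call was not tested.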
